A study of Homo sapiens with 24 samples.

Results

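Treated TMD8 cells were compared with treated DoHH2 cells. TMD8 is an established line of activated B-cell type diffuse large B-cell lymphoma (ABC-DLBCL), and DoHH2 is an established line of the germinal center B-cell type (GCB-DLBCL). All 6 arrays of treated TMD8 cells and all 6 of treated DoHH2 cells were used, which is 12 of the 24 arrays of the series. The groups were TMD8 with 100 nM ITF-A, TMD8 with 200 nM ITF-B, DoHH2 with 100 nM ITF-A and DoHH2 with 200 nM ITF-B, with 3 arrays each, 1 from each of 3 independent experiments, and all cells were exposed for 8 h. ITF-A and ITF-B are histone deacetylase inhibitors (HDACi) known by code names, and since their doses differed the compound entered every fit as a covariate. No DMSO array entered the fit of this comparison. The remaining 12 arrays, TMD8 and DoHH2 cells with DMSO for 8 h, were used to ask which differences between the lines were also there without HDACi. They were also part of the joint normalization and of the choice of 1 probe per gene. Each subtype was represented by 1 line, so that a difference between the lines and a difference between the subtypes cannot be told apart. The p-values measure the spread between arrays of the same line, beyond compound and chip. ITF-A and ITF-B arrays of 1 line and experiment number, which always shared a chip, deviated together (r above 0.1 in 5 of 6 pairs). A fit with line and experiment as a random block put their correlation at -0.0265. The 6 arrays of a line may still not be 6 separate experiments.

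Diffuse large B-cell lymphomas of the germinal center type keep genes of germinal center B cells, such as BCL6, MME and SERPINA9, whereas those of the activated type resemble B cells that have left the germinal center and signal through the B-cell receptor, MYD88 and NF-kB. Histone deacetylases remove acetyl groups from histones and other proteins, and their inhibitors change the transcription of many genes within hours.

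The values are log2 intensities after background correction and quantile normalization, on which the median probe lies at 6.15 and the range is 5.65 to 14.49. No detection p-value was used, so a level near 6.15 cannot be told from background, and a difference against such a level may be understated. Across probes, treated arrays of the same line correlated at r = 0.9934 to 0.9962, and treated arrays of different lines at 0.9493 to 0.9515. Median raw intensities were 96.64 to 112.1 in treated TMD8 arrays and 99.06 to 108.2 in treated DoHH2 arrays. Chip 1 held 4 TMD8 and 2 DoHH2 arrays and chip 2 held 2 TMD8 and 4 DoHH2 arrays, so the chip was a term of the fit. In what follows a difference is TMD8 minus DoHH2 on the log2 scale with its standard error (SE), and it is called when the p-value of limma, adjusted over 47231 probes by Benjamini-Hochberg, was under 0.05. Each gene was read from its brightest probe.

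The treated lines differed widely. Of 47231 probes 14272 were called (30.2%), 6962 higher and 7310 lower in TMD8. Of 19951 genes 4276 were higher in TMD8 (21.4%) and 4310 were lower (21.6%). A called difference of 1 or more was found for 717 genes higher in TMD8 (3.59%) and 641 lower (3.21%). For 6722 genes (33.7%) the 6 arrays of TMD8 did not overlap with the 6 of DoHH2. The median difference over all genes was -0.0021. Among the 9969 genes in the brighter part of the distribution 35.5% were higher and 37.3% lower. Counts of the gene lists below were not tested against these shares.

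Most of these differences were also there in DMSO-treated cells, and many changed in size. The DMSO comparison was fitted in the same way on the 12 DMSO arrays and shares no array with the treated one. It called 4179 genes higher in TMD8 (20.9%) and 4462 lower (22.4%). Of the 4179 genes higher in DMSO-treated TMD8 cells, 2941 (70.4%) were also called higher in treated TMD8 cells, 989 (23.7%) were not called there, and 249 (5.96%) were called lower. Of the 4462 genes lower in DMSO-treated TMD8 cells, 3164 (70.9%) were also called lower in treated cells, 1024 (22.9%) were not called and 274 (6.14%) were called higher. A further 1061 genes higher and 897 genes lower in treated TMD8 cells were not called with DMSO. Genes called in 1 direction in both states made up 68.8% of those higher and 73.4% of those lower in treated TMD8 cells. Over genes, which are not independent replicates, the treated and the DMSO difference correlated at r = 0.808 (Spearman's rho 0.648).

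The change of the line difference with treatment was tested directly on all 24 arrays as the difference in treated cells minus that in DMSO-treated cells. It was called for 6150 genes (30.8%). Among the genes called in 1 direction in both states, the difference was larger in treated cells for 1282 and smaller for 1827 by this test. Differences of 1 or more were found for 1358 genes in treated cells and 1539 genes in DMSO-treated cells. Both states had such a difference in 1 direction for 896 genes and in opposite directions for 2. Only 43 genes with a difference of 1 or more in treated cells were not called in DMSO-treated cells.

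**Figure D1:**
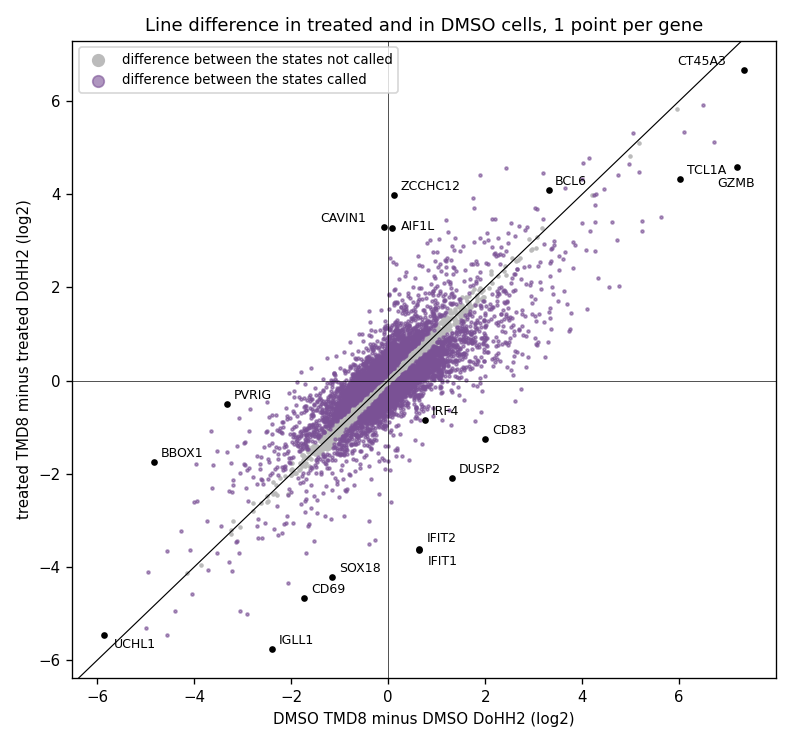
The difference TMD8 minus DoHH2 of each of 19951 genes in treated cells (vertical axis, log2) is plotted against that in DMSO-treated cells (horizontal axis, log2), with purple points for the 6150 genes whose difference changed between the states and a line of equal differences. CT45A3 (6.67 and 7.33), UCHL1 (-5.46 and -5.85) and BCL6 (4.08 and 3.31) keep their sign, ZCCHC12, CAVIN1 and AIF1L are called only in treated cells, and IFIT1, IFIT2, DUSP2, CD83 and IRF4 have opposite signs in the 2 states.

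In many of the largest differences 1 line was near background. The cancer-testis gene CT45A3, normally confined to the germ line, gave 12.43 to 12.74 (median 12.67) in treated TMD8 arrays and 5.82 to 6.05 (median 5.95) in treated DoHH2 arrays, a difference of 6.67 ± 0.0591 (SE, adjusted p = 5.78e-35) or 102-fold. CT45A1 (5.34), CT45A5 (4.48) and MAGEA9B (4.82) were higher in TMD8 as well, but near-identical copies of these families may share signal. Of a list of 28 cancer-testis genes, which held CT45A1 but not the other 3, 6 were higher and 2 lower in TMD8, and 20 were not called, beside 21.4% higher and 21.6% lower among all genes. PRAME, a further tumor antigen, was higher by 2.99 ± 0.0513 (adjusted p = 2.2e-28), and DDX43 was lower by 1.78 ± 0.0555 (adjusted p = 7.52e-22).

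Other genes much higher in TMD8 were of B cells, or of tissues other than B cells. TCL1B, a relative of the AKT coactivator TCL1A, ran from 12.29 to 12.60 (median 12.36) in TMD8 and from 6.46 to 6.61 (median 6.51) in DoHH2. Its difference was 5.92 ± 0.0523 (adjusted p = 5.78e-35). The calcium-activated cation channel TRPM4 differed by 5.82 ± 0.0564 (adjusted p = 4.4e-34). Neither gene overlapped between the lines on any array, which the rule for choosing the 15 genes required. E-cadherin, CDH1, gave 10.37 to 10.68 (median 10.45) in TMD8 and 5.75 to 6.05 (median 5.84) in DoHH2, and the difference was 4.66 ± 0.0568 (adjusted p = 5.88e-32). Granzyme B, GZMB, a protease of cytotoxic cells, gave 10.40 to 10.48 (median 10.43) in TMD8 and 5.81 to 5.91 (median 5.87) in DoHH2, a difference of 4.57 ± 0.0486 (adjusted p = 2.36e-33). The GZMB difference was 7.20 in DMSO-treated cells, so that it changed by -2.61 ± 0.0705 (adjusted p = 1.79e-28), with DoHH2 near background in both states. GTSF1 (5.30), the pseudogene NAPSB (5.11), the actin regulator EVL (5.10), tropomyosin TPM2 (4.78), YBX3 (4.66), ARMCX2 (4.56) and the stress-response transcription factor ATF5 (4.45) completed the 15 largest. ARMCX2 differed by 2.43 in DMSO-treated cells, so that its difference grew by 2.14 (adjusted p = 1.83e-24).

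The largest difference in the other direction was of an immunoglobulin-related probe. IGLL1, the surrogate light chain gene of early B cells, gave 8.18 to 8.51 (median 8.39) in treated TMD8 arrays and 14.08 to 14.25 (median 14.09) in treated DoHH2 arrays, a difference of -5.76 ± 0.0571 (adjusted p = 7.1e-34). With DMSO it was at 11.78 in TMD8 and 14.15 in DoHH2 (difference -2.39), and the difference changed by -3.40 with treatment (adjusted p = 8.96e-31). The other 2 IGLL1 probes were at 5.96 and 6.07 in TMD8 and at 5.88 and 6.16 in DoHH2 and were not called, and IGLL1 is close in sequence to immunoglobulin lambda genes, so that the brightest probe may not measure IGLL1. JCHAIN, the joining chain of secreted IgM and IgA, gave 7.15 to 7.46 (median 7.29) in TMD8 and 12.53 to 12.70 (median 12.61) in DoHH2, and differed by -5.31 ± 0.0579 (adjusted p = 3.88e-33). The actin-bundling protein FSCN1 differed by -5.46 ± 0.0571 (adjusted p = 1.61e-33). The deubiquitinase UCHL1, best known from neurons and germinal center B cells, gave 5.89 to 6.13 (median 5.99) in TMD8 and 11.42 to 11.54 (median 11.49) in DoHH2, and its difference of -5.46 ± 0.0518 (adjusted p = 3.19e-34) compares with -5.85 in DMSO-treated cells. For each of these genes every TMD8 array was below every DoHH2 array, which the rule for choosing the 15 genes required. IGFBP2 (-4.94), the endothelial transcription factor SOX18 (-4.22), the intermediate filament INA (-4.13) and LAMP5 (-4.10) were also near background in TMD8. The SOX18 difference was -1.15 with DMSO and changed by -3.10 with treatment (adjusted p = 8.71e-28). The remaining genes of the 15, namely IFITM1, IFIT3, CD69, HLA-DRB1, HLA-DRB5, CCL5 and CCL3L3, belong to groups described with their lists.

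**Figure D2:**
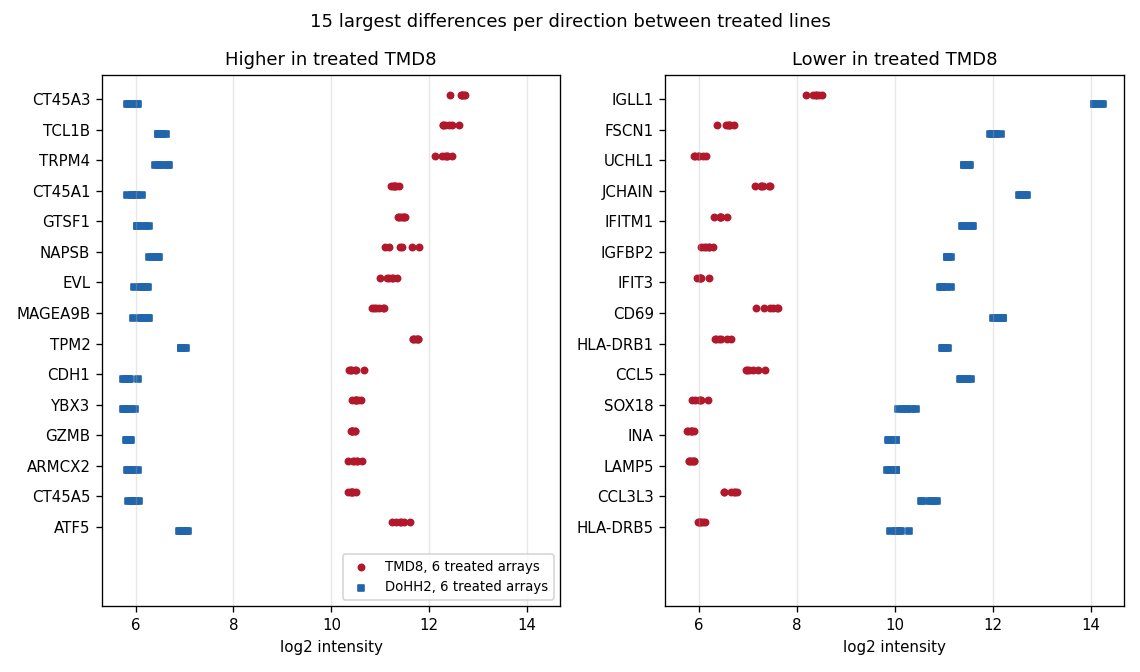
Each point is 1 treated array, with log2 intensity on the horizontal axis, for the 15 genes with the largest difference in each direction, TMD8 arrays as red circles and DoHH2 arrays as blue squares. Genes were taken only from those called with each compound and without overlap between the lines, so the separation of the lines was required. The 6 arrays of a line lie close together for every gene. Differences run from CT45A3 (6.67) to ATF5 (4.45) and from IGLL1 (-5.76) to HLA-DRB5 (-4.07).

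The genes used to sort lymphomas by cell of origin separated the treated lines only in part. Of 8 genes of the ABC type 3 were higher and 4 lower in treated TMD8 cells, with a median difference of -0.17, whereas 5 were higher and 0 lower with DMSO, where the median was 0.57. Of 7 genes of the GCB type 1 was higher and 3 were lower in treated TMD8 cells, and with DMSO 2 were higher and 2 lower. Of the 5 housekeeping genes of the same assay 0 were higher and 3 lower, ISY1 by 0.79, TRIM56 by 0.71 and R3HDM1 by 0.23. The R3HDM1 call was lost in some alternative fits.

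IRF4, a transcription factor of activated B cells and plasma cells, gave 9.97 to 10.40 (median 10.33) in treated TMD8 arrays and 10.94 to 11.31 (median 11.03) in treated DoHH2 arrays, a difference of -0.85 ± 0.0568 (adjusted p = 1.08e-13). With DMSO the order was the opposite, at 11.21 in TMD8 and 10.39 in DoHH2 (difference 0.76, adjusted p = 7.69e-12). With treatment IRF4 fell by 0.93 in TMD8, and it rose by 0.67 in DoHH2. CCDC50 likewise differed by -0.48 in treated cells and by 0.38 with DMSO. CREB3L2 (-1.01) and TNFRSF13B (-0.43), which encodes the receptor TACI, were lower in treated TMD8 cells and not called with DMSO. CYB5R2 was the ABC gene with the largest difference, at 9.36 to 9.56 (median 9.49) in TMD8 and 5.89 to 6.29 (median 6.07) in DoHH2, or 3.39 ± 0.0639 (adjusted p = 2.31e-27). RAB29 (0.42, against 1.97 with DMSO) and the kinase PIM2 (0.35, against 1.08 with DMSO) were higher in TMD8 by less than with DMSO, and both changes were called. LIMD1 was near background in both lines.

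Among the GCB genes MME, which encodes the surface protease CD10, was at 5.75 to 5.94 (median 5.85) in TMD8 and 7.68 to 8.07 (median 7.87) in DoHH2, a difference of -2.05 ± 0.0615 (adjusted p = 2.68e-22), with -2.13 in DMSO-treated cells. ASB13 was lower by 0.70. SERPINA9 was lower in treated TMD8 cells (-0.60) and higher in DMSO-treated ones (0.58). MYBL1, a relative of MYB, went the other way from its label and was higher in treated TMD8 cells by 1.11 ± 0.0717 (adjusted p = 4.59e-14). MAML3, ITPKB and S1PR2 were not called and were near background in both lines. BCL6, the repressor that maintains the germinal center state, also went against the line labels. It gave 10.62 to 10.80 (median 10.69) in treated TMD8 arrays and 6.44 to 6.74 (median 6.62) in treated DoHH2 arrays, a difference of 4.08 ± 0.0558 (adjusted p = 1.02e-30), against 3.31 with DMSO, where DoHH2 was at 5.84. Of 19 GCB-associated genes outside the assay, BCL6 included, 8 were higher and 8 lower in treated TMD8 cells. ELL3 (1.67) and CXCR4 (1.66) were among those higher, and CD38 (-3.89), STAP1 (-2.69) and GCSAM (-1.15) among those lower. For comparison, 35.5% of the brighter genes were higher and 37.3% lower in treated TMD8 cells.

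Of 17 other genes associated with the ABC type 10 were higher and 3 lower in treated TMD8 cells, with a median difference of 0.27, and 15 were higher and 1 lower with DMSO, with a median of 1.11. The change of the difference was called downward for 15 of the 17. The 3 lower genes were CCND2, BTLA (-0.38, against -1.41 with DMSO) and IL10 (-0.22, not called with DMSO). SPIB, an ETS family factor of B cells, gave 10.25 to 10.45 (median 10.28) in treated TMD8 and 7.39 to 7.78 (median 7.56) in treated DoHH2, a difference of 2.78 ± 0.0590 (adjusted p = 4.31e-26), against 4.27 with DMSO. BATF (1.16 ± 0.0616, adjusted p = 3.79e-16) and STAT3 (1.12 ± 0.0552, adjusted p = 6.87e-17) were also higher, against 2.75 and 1.83 with DMSO. Cyclin D2, CCND2, which drives the entry into the cell cycle, changed sides. It gave 9.21 to 9.43 (median 9.31) in treated TMD8 and 10.52 to 10.70 (median 10.62) in treated DoHH2, a difference of -1.28 ± 0.0504 (adjusted p = 2.63e-19). With DMSO it was at 12.23 in TMD8 and 11.68 in DoHH2, so that it fell in both lines with treatment, by 2.92 in TMD8 and by 1.06 in DoHH2.

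**Figure D3:**
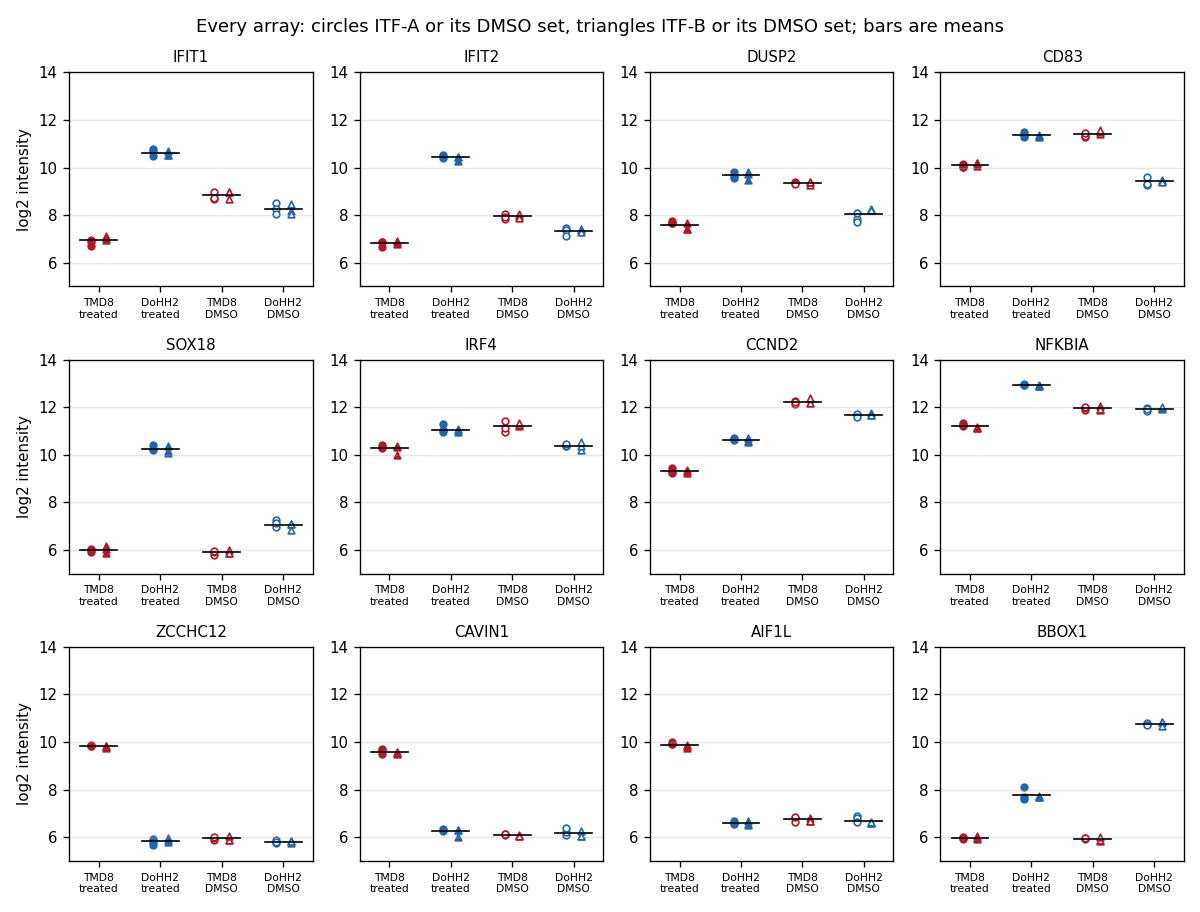
Log2 intensity of 12 genes on all 24 arrays, in the order treated TMD8, treated DoHH2, DMSO TMD8 and DMSO DoHH2, with circles for the ITF-A arrays or their DMSO set, triangles for ITF-B or its DMSO set and bars for means. In IFIT1, IFIT2, DUSP2, CD83, IRF4 and CCND2 the order of the lines turns between the states, and ZCCHC12, CAVIN1 and AIF1L are above 9 only in treated TMD8.

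B-cell identity genes were mostly higher in TMD8. Of 19 such genes 11 were higher and 5 lower in treated cells, with a median difference of 0.29, against 14 higher and 3 lower with DMSO, with a median of 0.67. TCL1A gave 10.17 to 10.64 (median 10.20) in treated TMD8 and 5.90 to 6.04 (median 5.98) in treated DoHH2, a difference of 4.33 ± 0.0620 (adjusted p = 2.96e-30), against 6.02 with DMSO. The tetraspanin CD37 (2.67) and the CD20 gene MS4A1 (1.98 ± 0.0589, adjusted p = 2.17e-22) were higher in treated TMD8 cells. The pre-B-cell gene VPREB3 (-1.85), the CD23 gene FCER2 (-1.28) and the kinase BLK (-0.62) were lower. Genes of B-cell receptor signaling ran in the same direction, with 13 of 22 higher, 2 lower and a median of 0.23, against 18 higher, 4 lower and a median of 0.57 with DMSO. RASGRP3, an activator of RAS, was higher by 2.50 ± 0.0512 (adjusted p = 1.87e-26), VAV2 by 1.47 and PIK3CD by 0.94. The receptor-proximal kinase SYK was not called in treated cells (0.06 ± 0.0588, adjusted p = 0.598), although it was higher in DMSO-treated TMD8 cells by 1.47. The SYK difference changed by -1.44 ± 0.0781 (adjusted p = 1.61e-18). BTK was not called in treated cells either (-0.12, adjusted p = 0.208). With ITF-B alone BTK was called lower in TMD8 (-0.27, adjusted p = 0.0113), and with ITF-A alone it was not called (0.03). With DMSO it was higher in TMD8 by 0.17 (adjusted p = 0.0246), and its difference changed by -0.31 (adjusted p = 0.00245).

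The plasma cell programme was lower in TMD8. Of 18 genes 17 were lower in treated TMD8 cells and 1 was higher, with a median difference of -1.09. With DMSO 14 were lower and 4 higher, with a median of -0.91. The surface enzyme CD38 had a median of 6.31 in TMD8 and of 10.19 in DoHH2, with no overlap between the lines, a difference of -3.89 ± 0.0568 (adjusted p = 4.49e-30). CD27, a marker of memory B cells and plasma cells, was lower by 2.58 ± 0.0548 (adjusted p = 4.69e-26), and the coactivator POU2AF1 by 2.49 ± 0.0688 (adjusted p = 3.56e-23). TNFRSF17, which encodes BCMA, was lower by 0.92, at a median of 6.27 in TMD8 and 7.16 in DoHH2, and with DMSO it was at 9.07 and 10.26. FCRL5 was the gene that was higher, by 1.25 (3.20 with DMSO).

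NF-kB genes stood on both sides. Among 21 components and regulators of the pathway 5 were higher and 9 lower in treated TMD8 cells, with a median difference of -0.07, against 11 higher and 4 lower with DMSO, with a median of 0.21. The change was called downward for 17 of them. Beside the treated counts, 35.5% of the 9969 brighter genes were higher and 37.3% lower in TMD8, and 21.4% and 21.6% of all genes. NFKBIA, the inhibitor of NF-kB and itself one of its targets, gave 11.10 to 11.32 (median 11.19) in treated TMD8 and 12.89 to 12.99 (median 12.93) in treated DoHH2, a difference of -1.73 ± 0.0494 (adjusted p = 7.84e-23). With DMSO the lines were at 11.95 and 11.93 and were not called. With treatment NFKBIA fell by 0.76 in TMD8, and it rose by 0.996 in DoHH2. NFKB1, the p105 and p50 subunit, was lower in treated TMD8 by 1.10 ± 0.0658 (adjusted p = 6.85e-15) and not called with DMSO (0.04, adjusted p = 0.69). The deubiquitinase TNFAIP3, a brake on the pathway, was lower by 1.83 ± 0.0704 (adjusted p = 1.39e-19). BCL3 (1.28), RELB (0.57) and the kinase MAP3K14 (0.42) were higher in treated TMD8 cells, each by less than with DMSO.

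Of 31 NF-kB target genes 12 were higher and 15 lower in treated TMD8 cells, with a median of -0.18, against 17 higher and 12 lower with DMSO, with a median of 0.57. The change was called downward for 21 and upward for 5, and 5 genes higher with DMSO were lower in treated cells. In treated cells 35.5% of the brighter genes were higher and 37.3% lower in TMD8, and 21.4% and 21.6% of all genes. The cytokine gene TNF remained higher, at 8.58 to 8.90 (median 8.77) in treated TMD8 and 6.61 to 7.01 (median 6.77) in treated DoHH2, a difference of 2.01 ± 0.0608 (adjusted p = 3.49e-22), against 4.55 with DMSO. The early activation antigen CD69 was at 7.17 to 7.62 (median 7.48) in treated TMD8 and 12.01 to 12.21 (median 12.13) in treated DoHH2, a difference of -4.65 ± 0.0664 (adjusted p = 2.85e-30), against -1.73 with DMSO. CD69 rose by 2.89 in DoHH2 with treatment, whereas its change in TMD8 was not called (-0.01). CD83, a marker of activated B cells, gave 10.01 to 10.19 (median 10.10) in treated TMD8 and 11.27 to 11.50 (median 11.34) in treated DoHH2, a difference of -1.26 ± 0.0552 (adjusted p = 4.06e-18). In DMSO-treated cells CD83 was higher in TMD8 by 2.01, at 11.42 against 9.41 in DoHH2.

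Among Toll-like receptor and MYD88 genes 7 of 19 were higher and 7 lower in treated TMD8 cells, against 12 higher and 3 lower with DMSO. IRAK3 (0.99), TLR10 (0.91) and UNC93B1 (0.67) were higher. TLR7, a sensor of single-stranded RNA, was lower in treated TMD8 by 1.62 ± 0.0531 (adjusted p = 2.45e-21) and higher in DMSO-treated TMD8 by 0.28. The kinase IRAK1 differed by -0.39, against -0.83 with DMSO (change 0.47, adjusted p = 2.78e-06). JAK-STAT genes divided into 13 higher and 11 lower of 31, beside 35.5% higher and 37.3% lower among the brighter genes. The cytokine receptor IL21R was higher by 1.35 and the kinase PIM1 by 1.01. SOCS2, a feedback inhibitor, was at 6.40 to 6.89 (median 6.75) in TMD8 and 10.28 to 10.49 (median 10.31) in DoHH2, a difference of -3.66 ± 0.0674 (adjusted p = 1.33e-27). The shared cytokine receptor chain IL6ST was lower by 1.51 and STAT5A by 0.89.

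Interferon-stimulated genes were lower in treated TMD8 cells and higher in DMSO-treated ones. These genes are switched on when interferon activates the factor ISGF3, which binds the interferon-stimulated response element (ISRE). Of 35 measured genes 25 were lower and 2 higher in treated TMD8 cells, with a median difference of -0.60, whereas with DMSO 23 were higher and 9 lower, with a median of 0.41. For 14 genes TMD8 was called lower in treated cells and higher with DMSO, and the change was called downward for 33 of 35 and upward for 0. The median change of the list with treatment was -1.11 in TMD8 and 0.03 in DoHH2, beside -0.0047 and -0.0013 over all genes. In IFIT1, whose protein binds foreign RNA, the 6 treated TMD8 arrays gave 6.72 to 7.11 (median 6.95) and the 6 treated DoHH2 arrays 10.49 to 10.77 (median 10.61), a difference of -3.63 ± 0.0588 (adjusted p = 5.52e-29) or 12.4-fold. With DMSO IFIT1 was higher in TMD8 by 0.64, at 8.83 against 8.25 in DoHH2. It fell by 1.89 in TMD8, and it rose by 2.37 in DoHH2 with treatment.

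IFIT2 behaved alike, at 6.65 to 6.90 (median 6.85) in treated TMD8 and 10.27 to 10.51 (median 10.46) in treated DoHH2, a difference of -3.60 ± 0.0572 (adjusted p = 3.53e-29), against 0.63 with DMSO. IFIT3 was lower in TMD8 in both states, at 5.95 to 6.21 (median 6.02) in treated TMD8 and 10.93 to 11.14 (median 10.97) in treated DoHH2. Its difference was -4.93 ± 0.0535 (adjusted p = 3.78e-33), against -3.04 with DMSO. IFITM1, an interferon-induced membrane protein that restricts viral entry and was not on the list, differed by -5.01 ± 0.0514 (adjusted p = 1.24e-33), against -2.91 with DMSO. ISG15 (-0.87, against 1.79 with DMSO), MX1 (-0.94, against 1.29 with DMSO) and EPSTI1 (-1.37, against 0.69 with DMSO) were lower in treated and higher in DMSO-treated TMD8 cells. MX2 (1.19) and HERC6 (0.90) were the 2 genes called higher in treated TMD8 cells, both by less than with DMSO.

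The promoters are shown because most genes of the list moved in 1 direction. Promoter sequences of 250 bases before to 50 bases after the start, from RefSeq on build GRCh38.p14, were found for 28 of the interferon-stimulated genes. The core of the ISRE, a pair of GAAA elements separated by 2 bases of any kind, was searched on both strands and occurred in 19 of the 28 promoters (67.9%) and in 996 of all 27305 promoters (3.65%). Of the 19 genes with a match 18 were lower in treated TMD8 cells, and of the 9 without 4 were lower and 1 was higher. Among all genes 21.6% were lower. Whether a match goes with the direction of the difference was not tested. The windows of 60 bases from IFIT1 at chr10:89392485-89392544 and IFIT3 at chr10:89327840-89327899, both on the plus strand, each hold 2 matches, which are in capitals and read as the reverse complement.
IFIT1: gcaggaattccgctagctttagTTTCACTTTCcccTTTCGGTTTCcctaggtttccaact
IFIT3: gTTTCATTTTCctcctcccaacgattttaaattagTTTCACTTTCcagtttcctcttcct
The matches begin 116 and 103 bases before the start of IFIT1 and 156 and 122 bases before that of IFIT3. IFIT3 was lower in TMD8 in both states and IFIT1 only in treated cells, with the same number of matches. A match describes the sequence only, and binding was not measured.

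Genes of antigen presentation were lower in TMD8 in both states. Of 18 MHC class II genes 15 were lower and 2 higher in treated TMD8 cells, with a median of -0.57, against 13 lower and 2 higher with DMSO, with a median of -0.71. HLA-DRB1 gave 6.32 to 6.65 (median 6.43) in treated TMD8 and 10.97 to 11.08 (median 11.01) in treated DoHH2, a difference of -4.58 ± 0.0553 (adjusted p = 4.93e-32). HLA-DRB5 differed by -4.07. The DRB genes are near-identical and vary between people, so that their probes may share signal. The 3 probes of HLA-DRB4 did not agree, with differences of -1.45, 2.44 and -0.03, and its direction is therefore uncertain. HLA-DMA (0.28) and HLA-DQB1 (0.33) were higher in treated TMD8. Of 21 genes of MHC class I and peptide loading 16 were lower and 1 was higher, with a median of -0.39, against 14 lower and 1 higher with DMSO. The peptide transporter TAP1 was lower by 1.70 ± 0.0557 (adjusted p = 2.44e-21), HLA-B by 1.41 and HLA-F by 1.33, while the immunoproteasome subunit PSMB10 was higher by 1.04.

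Of 35 cytokines and chemokines 15 were lower and 8 higher in treated TMD8 cells, beside 21.6% lower and 21.4% higher among all genes. Of the 15 lower ones 11 were lower by 1 or more. CCL5, which attracts T cells, gave 6.95 to 7.35 (median 7.06) in treated TMD8 and 11.33 to 11.55 (median 11.42) in treated DoHH2, a difference of -4.35 ± 0.0631 (adjusted p = 3.97e-30), against -2.07 with DMSO. CCL3 differed by -3.70 and the closely related CCL3L3 by -4.09, and these copies may share signal. CXCL9 differed by -3.62 ± 0.0580 (adjusted p = 4.38e-29). IL32 (1.15) and CXCL13 (0.77) were higher in treated TMD8. IL10 was high in both lines, at medians of 12.32 and 12.53, and differed by -0.22 ± 0.0589 (adjusted p = 0.003). Of 21 receptors of chemokines and positioning signals 3 were higher and 6 lower, with a median of -0.04. CXCR5, the receptor for CXCL13, was higher by 2.20 ± 0.0569 (adjusted p = 6.49e-24), against 4.32 with DMSO. CXCR4 was higher by 1.66 ± 0.0613 (adjusted p = 4.95e-20) and was not called with DMSO (0.12, adjusted p = 0.165). ACKR3 (-3.22) and GPR183 (-2.84) were lower.

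The TNF receptor family had 13 of 22 genes lower and 1 higher, TNFRSF12A (0.55), beside 21.6% lower and 21.4% higher among all genes. TNFRSF1A, a receptor for TNF, was lower by 1.88 ± 0.0613 (adjusted p = 2.06e-21), at a median of 5.95 in TMD8 and 7.87 in DoHH2. TNFRSF10B, a death receptor for TRAIL, was lower by 1.87 ± 0.0538 (adjusted p = 1e-22). Of 32 surface genes of activation and adhesion 16 were lower and 10 higher. SLAMF1 was lower by 3.46 ± 0.0532 (adjusted p = 1.72e-29) and CD48 by 2.42, while CD86 (0.85), ITGAX (0.78) and CD44 (0.56) were higher.

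Of 54 transcription factors of B cells 18 were higher and 22 lower in treated TMD8 cells, against 29 higher and 18 lower with DMSO. Among all genes 21.4% were higher and 21.6% lower in treated TMD8 cells, and among the 9969 in the brighter part of the distribution 35.5% were higher and 37.3% lower. Besides BCL6 and SPIB, the homeobox factor HHEX was higher by 2.09 ± 0.0628 (adjusted p = 2.94e-22). ID3, an inhibitor of E proteins, gave 7.74 to 8.03 (median 7.80) in treated TMD8 and 10.73 to 10.86 (median 10.76) in treated DoHH2, a difference of -2.91 ± 0.0530 (adjusted p = 9.92e-28), against -0.92 with DMSO. It rose in both lines with treatment, by 0.55 in TMD8 and 2.59 in DoHH2. RUNX3 was lower by 1.61. Among 18 dual-specificity phosphatases and MAP kinase feedback genes 11 were lower and 2 higher. DUSP2, which switches off ERK, gave 7.40 to 7.74 (median 7.66) in treated TMD8 and 9.48 to 9.82 (median 9.68) in treated DoHH2, a difference of -2.08 ± 0.0660 (adjusted p = 1.06e-21), against 1.32 with DMSO. DUSP1 (-0.95) and SPRY1 (-0.93) were lower in both states.

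Histone genes were the list with the largest share of genes higher in treated TMD8 cells. Of 58 measured genes 47 were higher and 3 lower, with a median difference of 0.75, and 26 were higher by 1 or more. The median was 0.58 with the authors' table and 1.17 with an offset of 16, at 47 and 46 genes higher. With DMSO 34 were higher and 4 lower, with a median of 0.20. The change was called upward for 37 and downward for 5. The median change with treatment was 0.79 in TMD8 and 0.14 in DoHH2. H2BC21, an H2B gene, gave 11.69 to 11.91 (median 11.77) in treated TMD8 and 8.39 to 9.03 (median 8.64) in treated DoHH2, a difference of 3.04 ± 0.0682 (adjusted p = 1.87e-25). With DMSO the difference was 2.91 at levels of 9.41 and 6.52, and H2BC21 rose in both lines with treatment, by 2.37 in TMD8 and by 2.17 in DoHH2. The change of its difference was not called (0.20 ± 0.103, adjusted p = 0.214). H2AC6 differed by 3.47 ± 0.0564 (adjusted p = 5.97e-29), against 2.13 with DMSO. H3C8 gave 9.10 to 9.38 (median 9.27) in treated TMD8 and 6.13 to 6.38 (median 6.22) in treated DoHH2, a difference of 3.04 ± 0.0558 (adjusted p = 1.21e-27), against 1.04 with DMSO. The 3 genes lower in TMD8 were H1-10 (-1.01), H2AX (-0.51) and H2AZ2 (-0.50), which lie outside the large histone clusters. Histone genes are close copies, so that their probes may share signal.

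H2B promoters are shown for the octamer element, which the factors OCT1 and OCT2 bind. The letters ATTTGCAT, searched on both strands, occurred in 12 of 15 H2B promoters (80%), in 23 of 56 histone promoters (41.1%) and in 492 of all 27305 promoters (1.8%). The windows of H2BC21 at chr1:149886705-149886764 and of H2BC12 at chr6:27146881-27146940, both on the minus strand, have the octamer in capitals, beginning 46 bases before the start in each.
H2BC21: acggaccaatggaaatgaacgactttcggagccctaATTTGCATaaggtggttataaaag
H2BC12: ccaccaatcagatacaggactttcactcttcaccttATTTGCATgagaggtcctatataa
Of the 12 H2B genes with the octamer 11 were higher in treated TMD8 cells, from 0.18 in H2BC14 to 3.04 in H2BC21, and H2BC10 was not called (0.12). The 3 without it, H2BC5 (2.84), H2BC15 (0.96) and H2BC13 (0.23), were higher too.

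**Figure D4:**
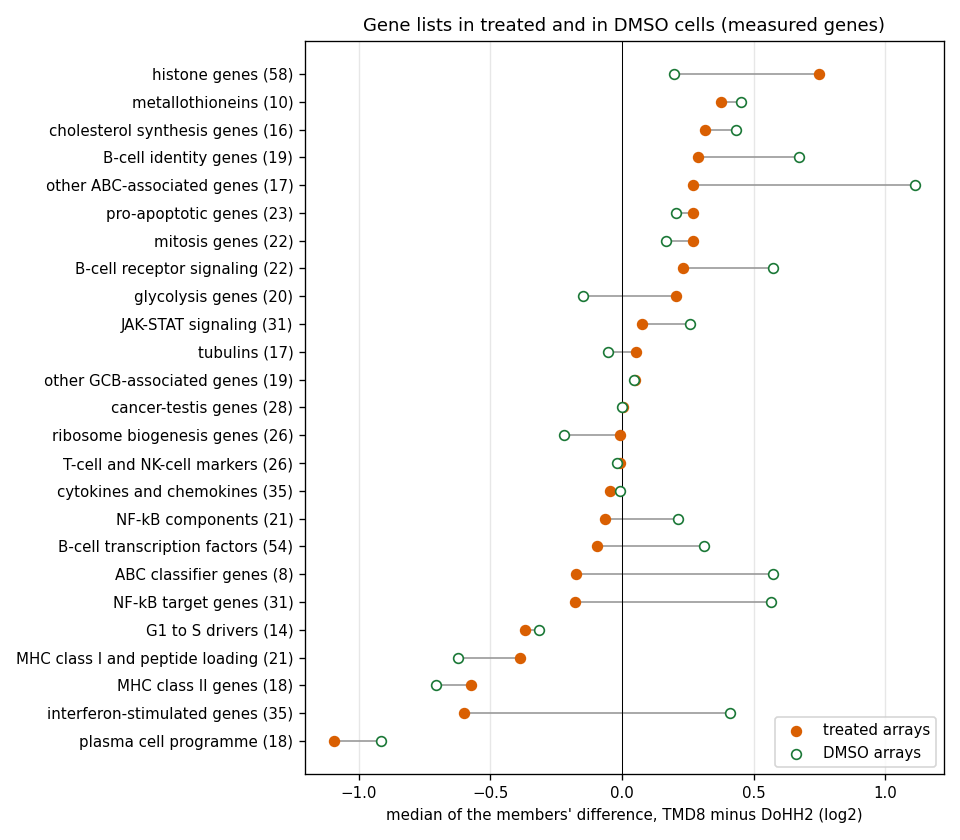
Median difference TMD8 minus DoHH2 (log2) of the measured members of 25 gene lists, in treated cells (filled) and in DMSO-treated cells (open), with the number of measured genes in parentheses. Interferon-stimulated genes lie at -0.60 in treated and 0.41 in DMSO-treated cells, histone genes at 0.75 and 0.20, and the plasma cell programme at -1.09 and -0.91.

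Deacetylase genes were found on both sides. Of 18 measured, sirtuins and class IIa enzymes included, 6 were higher and 7 lower in treated TMD8 cells. Among all genes 21.4% were higher and 21.6% lower, and among the 9969 brighter genes 35.5% and 37.3%. The counts of this list are near the latter. Sirtuins and class IIa enzymes are outside the classes named as targets of the compounds. HDAC1 gave 10.59 to 10.88 (median 10.67) in treated TMD8 and 11.81 to 11.97 (median 11.94) in treated DoHH2, a difference of -1.20 ± 0.0513 (adjusted p = 1.86e-18), against -1.14 with DMSO. HDAC2 was lower by 0.63 and HDAC4 by 0.55, while HDAC6 (0.40), SIRT2 (0.78) and SIRT4 (0.43) were higher. The acetyltransferase CREBBP (0.49) and its relative EP300 (0.57) were higher in treated TMD8, as were NCOA1 (1.02) and KAT2B (0.92), and the acetyl-lysine reader BRD2 was lower (-0.28). Among 34 chromatin methylation enzymes 10 were higher and 9 lower, with KDM5B, a demethylase of histone H3, at 1.46 and the DNA methyltransferase DNMT3B at -1.55.

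Genes of apoptosis and of the cell cycle were found on both sides. Of 23 pro-apoptotic genes 14 were higher and 6 lower in treated TMD8 cells, with a median of 0.27. Beside this, 35.5% of the brighter genes were higher and 37.3% lower, and 21.4% and 21.6% of all genes. BCL2L11, which encodes BIM, gave 9.20 to 9.59 (median 9.29) in treated TMD8 and 6.25 to 6.49 (median 6.37) in treated DoHH2, a difference of 3.02 ± 0.0654 (adjusted p = 7.25e-26), against 4.71 with DMSO. BAX was higher by 0.77, whereas PMAIP1, which encodes NOXA, was lower by 1.48 ± 0.0622 (adjusted p = 1.45e-18). BCL2 was higher by 0.88 ± 0.0557 (adjusted p = 3.13e-14), against 2.00 with DMSO. BCL2L1 was lower in treated TMD8 cells by 0.30 ± 0.0578 (adjusted p = 8.79e-05), a call lost on chip 2 alone, and higher in DMSO-treated ones by 0.69.

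CDKN1A, the cell cycle inhibitor p21, was high in both treated lines and lower in TMD8. It gave 11.62 to 12.01 (median 11.85) in treated TMD8 and 12.65 to 12.85 (median 12.70) in treated DoHH2, a difference of -0.87 ± 0.0556 (adjusted p = 3.25e-14), against -0.49 with DMSO. CDKN2D, the inhibitor p19, was higher by 0.53 ± 0.0579 (adjusted p = 5.07e-09). GADD45A, a stress-induced growth arrest gene, was at 6.61 to 6.80 (median 6.77) in treated TMD8 and 9.87 to 10.15 (median 9.94) in treated DoHH2, a difference of -3.28 ± 0.0561 (adjusted p = 2.13e-28). MYC gave 8.73 to 9.28 (median 8.97) in treated TMD8 and 9.99 to 10.55 (median 10.14) in treated DoHH2, a difference of -1.17 ± 0.0836 (adjusted p = 4.94e-13), against -0.25 with DMSO. Of 14 drivers of the G1 to S step 10 were lower and 3 higher, with E2F2 at -1.97 and CDK6 at -1.42. Of 22 mitosis genes 14 were higher and 5 lower, with CDK1 at 0.80 and CCNA2 at -0.39. Of 27 DNA replication genes 7 were higher and 12 lower, against 2 and 18 with DMSO, and the ribonucleotide reductase subunit RRM2 had the largest difference of them, -2.97 ± 0.0658 (adjusted p = 1.31e-25), against -1.18 with DMSO. Beside the treated counts of these lists, 35.5% of the brighter genes were higher and 37.3% lower in TMD8. The counts of the replication genes in treated cells are not far from these shares.

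Of 20 glycolysis genes 11 were higher and 4 lower in treated TMD8 cells, with a median of 0.20, whereas with DMSO 4 were higher and 10 lower, with a median of -0.15. The change of the difference was called upward for 15, and 3 genes were called higher in treated and lower in DMSO-treated TMD8 cells. The phosphofructokinase PFKP was higher by 2.20 ± 0.0616 (adjusted p = 5.03e-23), against 0.97 with DMSO, and PFKL by 0.82, not called with DMSO. Of 26 ribosome biogenesis genes 9 were higher and 9 lower, against 1 and 16 with DMSO. Of 16 cholesterol synthesis genes 9 were higher and 3 lower, and NPC1, a cholesterol exporter of lysosomes, was called only in treated cells (-1.92 ± 0.0527, adjusted p = 2.79e-23, against 0.05 with DMSO). Antioxidant genes were 9 higher and 9 lower of 22, beside 35.5% higher and 37.3% lower among the brighter genes. Microsomal MGST1 (3.40 ± 0.0608, adjusted p = 6.12e-28) and heme oxygenase HMOX1 (2.74 ± 0.0590, adjusted p = 6.32e-26) were higher, and SOD2 (-1.24), NQO1 (-1.14) and thioredoxin, TXN (-0.77), were lower. Metallothioneins, which bind zinc and copper, divided by gene, with MT1E (2.13), MT1G (0.95) and MT1H (0.85) higher and MT2A (-0.81) and MT1X (-0.61) lower.

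Tubulins, neuronal genes and markers of other cell types differed for some members. Among all genes 21.4% were higher and 21.6% lower in treated TMD8 cells, and no list was tested against these shares. Of 17 tubulins 6 were higher and 3 lower in treated TMD8 cells. TUBB6 differed by 3.99 ± 0.0572 (adjusted p = 3.05e-30), against 4.25 with DMSO, and TUBB2A by 1.25 ± 0.0597 (adjusted p = 3.05e-17), against 0.16 with DMSO. Of 28 neuronal genes 7 were higher and 8 lower, against 2 and 9 with DMSO. The synaptic vesicle gene SYP (1.29, against 0.19 with DMSO) and NRXN2 (1.17, not called with DMSO) were higher in treated TMD8, and the scaffold DLG4 (-1.11) and the receptor subunit GRIN1 (-1.07) were lower. Of 26 T-cell and NK-cell markers 3 were higher, 4 lower and 19 not called. Of 21 myeloid markers 6 were higher and 2 lower, with CEBPA (2.60) and TYROBP (1.92) above the rest. Levels of these 2 lists had medians over their genes of 6.01 and 6.17 in treated TMD8 and 6.04 and 6.07 in treated DoHH2, all near background, and GZMB was the highest of the T-cell and NK-cell list in TMD8 at 10.44.

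Some genes were called between the lines in treated cells and not with DMSO. ZCCHC12 gave 9.74 to 9.88 (median 9.83) in treated TMD8 and 5.65 to 5.97 (median 5.84) in treated DoHH2, a difference of 3.98 ± 0.0565 (adjusted p = 2.55e-30), and with DMSO it was at 5.94 in TMD8 and 5.80 in DoHH2 and was not called (0.13, adjusted p = 0.0743). CAVIN1, a coat protein of caveolae, gave 9.49 to 9.72 (median 9.55) in treated TMD8 and 5.98 to 6.35 (median 6.30) in treated DoHH2, a difference of 3.29 ± 0.0551 (adjusted p = 1.25e-28). AIF1L differed by 3.26 ± 0.0517 (adjusted p = 3.44e-29). Neither CAVIN1 nor AIF1L was called with DMSO, and all 3 genes rose with treatment in TMD8, by 3.88, 3.50 and 3.14, but were not called in DoHH2. In the other direction BBOX1, an enzyme of carnitine synthesis, and PVRIG were near background in TMD8 in both states and fell in DoHH2 with treatment, by 3.02 and 2.82. Their differences were therefore smaller in treated cells, at -1.75 against -4.83 with DMSO for BBOX1 and -0.49 against -3.33 with DMSO for PVRIG.

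Few differences between the lines depended on the compound. Between the lines 12057 probes were called under ITF-A and 12050 under ITF-B. Among genes, 7410 were called under ITF-A and 7413 under ITF-B, of which 6502 were called with both in 1 direction and 3 in opposite directions. A test of whether the line difference itself depended on the compound called 9 of 47231 probes (0.0191%), 7 with a larger difference TMD8 minus DoHH2 under ITF-A and 2 with a smaller one, while 2427 had an unadjusted p under 0.05. Of the 14272 probes called between the lines, 13891 (97.3%) had a 95% interval of the change between compounds within 0.5 on either side of 0. Of the 9 probes 3 carry a gene symbol. NECAB1, a neuronal calcium-binding protein, gave 7.68, 7.81 and 7.72 in TMD8 with ITF-A and 6.58, 6.35 and 6.84 in TMD8 with ITF-B, against 5.83 to 5.90 in DoHH2 with ITF-A and 5.75 to 6.21 in DoHH2 with ITF-B. USP6 and ESRP2 were likewise higher in TMD8 with ITF-A than with ITF-B on all 3 arrays. The calls of all 3 genes were lost with the authors' table and with an offset of 16. The doses of the compounds differed, so these values compare 100 nM ITF-A with 200 nM ITF-B and not the compounds at 1 dose.

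Differences between the lines were unevenly spread over the chromosomes, and this hardly changed with treatment. Among the 9969 genes in the brighter part of the distribution, 35.5% were higher and 37.3% lower in treated TMD8 cells, with a median of -0.01. On chromosome 7 13.9% were higher and 62.1% lower, with a median of -0.30 (-0.31 with DMSO). On chromosome 18 67.6% were higher and 11.5% lower, with a median of 0.37 (0.35 with DMSO). On chromosome 19 58.2% were higher and 19.9% lower, with a median of 0.27, the same as with DMSO. FSCN1 (-5.46), AUTS2 (-3.00) and CNTNAP2 (-2.55) were the largest on chromosome 7, and TUBB6 (3.99), MYOM1 (2.80) and SYT4 (2.34) on chromosome 18. DNA copy number was not measured.

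**Figure D5:**
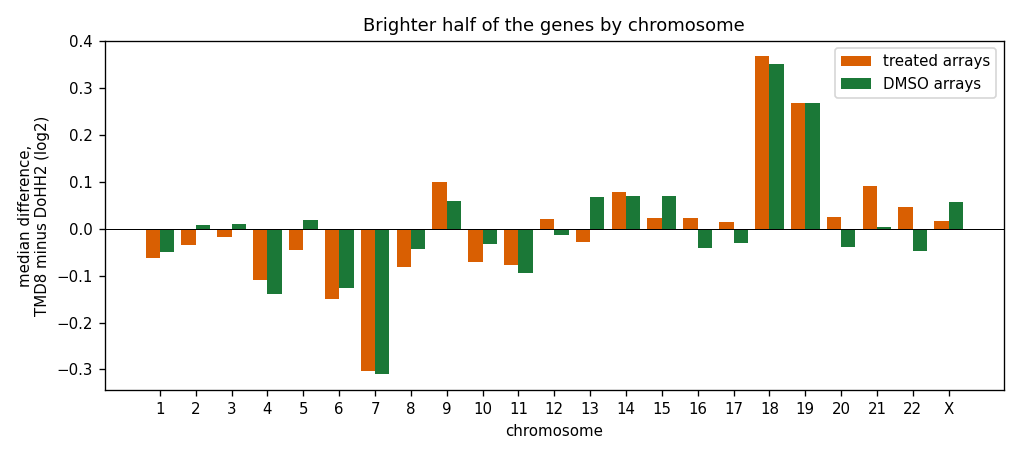
Bars give the median difference TMD8 minus DoHH2 (log2) of the brighter genes of each chromosome in treated cells (orange) and in DMSO-treated cells (green). Chromosome 7 is the lowest at -0.30 and chromosomes 18 (0.37) and 19 (0.27) are the highest, with similar medians in both states.

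Runs of 40 neighboring genes, in the RefSeq order of GRCh38.p14, gave medians from -0.76 to 1.39 over 9072 windows. The windows named here were chosen for their medians, so that these are descriptions without a test. The highest run, from PPP1R12C to ZNF671 at the end of chromosome 19, had 37 genes higher and 1 lower with a median of 1.39 (1.47 with DMSO), among them the kinase BRSK1 (3.07), RPL28 (2.02) and ZNF211 (2.01). A run on chromosome 6 from H4C2 to H2AC17, within the main histone cluster, had 29 genes higher and 8 lower with a median of 1.14, and with DMSO its median was 0.29. Runs on chromosome 9 from NOL6 to TOMM5 (0.59, against 0.76 with DMSO) and on chromosome 18 from ROCK1P1 to FAM210A (0.55, against 0.47 with DMSO) were also high. Low runs were found on chromosome 1 from MAN1C1 to SNORA73B (-0.76) and on chromosome 11 from EED to SLC35F2 (-0.76), with -0.72 and -0.69 in DMSO-treated cells.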

How the data were processed

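RNA of 24 cultures of DoHH2 and TMD8 cells, 8 groups of 3, was measured on Illumina HumanHT-12 v4 arrays on 2 chips. The intensity of each of 47231 probes was deposited by the authors without normalization. The log2 values of a second table were deposited by the authors after quantile normalization, and the study's methods also give ComBat, on a batch not named, and LIMMA. Each of the 24 columns of that table was closest to its own array (lowest r 0.999826).

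Intensities were corrected by normexp with an offset of 50, quantile normalized over the 24 arrays and log2 transformed (R 4.3.3, limma 3.58.1). The 12 treated arrays were fitted with line, compound and chip (8 residual degrees of freedom), the DMSO arrays likewise, and the change between the states on all 24 arrays by group and chip. P-values were moderated and adjusted over all probes by Benjamini-Hochberg. The scripts were tested on simulated data. Of the probes 30113 carry 1 gene symbol, 8 several and 17110 none. XIST and Y-linked genes were left out, and 969 of 1035 entries of 46 gene lists were measured. The number of arrays limits the precision, with a median SE of 0.0553.

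Named were the 15 largest differences per direction, the genes of the cell-of-origin assay, those the study names for treated cells or resistance, up to 3 highest and 3 lowest called genes per list, the 5 largest changes per direction and the genes called for compound. Genes named only with their promoter or chromosome were chosen after their values were seen. Members and lists were chosen with earlier results of these data known. Alternatives were no background correction, the authors' table, offset 16, a filter on dim probes, separate normalization, no chip term, single chips, replicate and random blocks, averaged compounds, all arrays, array weights, arrays left out, a minimum difference of 1 and another probe per gene. Figures used Python 3.11.15 and matplotlib 3.10.9.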

Additional observations from a re-analysis of the deposited data

Results flagged for a closer look

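The difference between the lines in treated cells departed from that in DMSO-treated cells for 9717 of 47231 probes by limma's test of the difference itself. The largest changes upward among genes called in treated cells were in ZCCHC12 (3.85 ± 0.0716 SE, adjusted p = 2.02e-33), CAVIN1 (3.41), AIF1L (3.24), BBOX1 (3.05) and PVRIG (2.79). ZCCHC12, CAVIN1 and AIF1L rose in TMD8 with treatment, and BBOX1 and PVRIG fell in DoHH2. The largest changes downward were in IFIT1 (-4.27 ± 0.0922, adjusted p = 2.99e-31), IFIT2 (-4.22), IGLL1 (-3.40), DUSP2 (-3.39) and CD83 (-3.26). IFIT1, IFIT2, DUSP2 and CD83 fell in TMD8 and rose in DoHH2, whereas IGLL1 fell in TMD8 and was not called in DoHH2.

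The difference between the lines with ITF-A departed from that with ITF-B for 9 probes. Those with a gene symbol were NECAB1 (1.26 ± 0.138 SE, adjusted p = 3.18e-05), USP6 (0.87, adjusted p = 0.00287) and ESRP2 (0.66, adjusted p = 0.00637). The doses of the compounds differed.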

How the results depend on the processing

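The comparison of the treated lines called 14272 probes, and between 11763 (chip 1 alone) and 14868 (experiment number in place of the chip) under the alternatives other than a minimum difference of 1, with which 1337 were called. Leaving out 1 array gave 13334 to 14257. Of the 267 named genes 121 kept direction and call under all alternatives run. ComBat on the chip was not run. A minimum difference of 1 ended the call of 143, and the other alternatives moved the call of 12, most often INPP5D, KAT8, KAT6A, R3HDM1 and USP6. HLA-DRB4 turned to 2.44 when read from its probe of largest variance. Gene list medians moved beyond the spread between arrays in 34 of 828 cases, with no change of direction. The median of histone genes ran from 0.58 with the authors' table to 1.17 with an offset of 16.

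The difference between the compounds, 9 probes, was called for 4 without background correction, 0 with the authors' table and 0 with an offset of 16 by limma, where 2470 and 2527 probes had an unadjusted p under 0.05. Leaving out 1 array gave 6 to 63, with 63 without TMD8 ITF-B replicate 1, 26 without TMD8 ITF-A replicate 1 and 25 without TMD8 ITF-B replicate 3. The change of the line difference, 9717 probes, ran from 8435 to 10012, and from 9337 to 9672 with 1 array left out. Genes called in 1 direction in both states numbered 5574 to 6233 and in opposite directions 383 to 586 in alternatives chosen after seeing the data.

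Whether experiment numbers paired the lines was not clear. Deviations of TMD8 and DoHH2 arrays of 1 number and compound correlated at -0.000247 to 0.158 (mean 0.0688), above 0.1 in 2 of 6 pairs. For different numbers the range was -0.142 to 0.0877 (mean -0.0344). ITF-A and ITF-B arrays of 1 line and number correlated at 0.0461 to 0.158 (mean 0.115), and those of different numbers at a mean of -0.0573. With the mean of the 2 arrays as 1 sample 14198 probes were called. With line and experiment as a random block the fitted correlation was -0.0265 and 14434 probes were called. With the experiment number as a replicate block 14868 probes were called in place of the chip term and 13280 together with it. Low signals limit what can be seen, since no detection p-value was used and levels near 6.15 may be background.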
